A study of Arabidopsis thaliana with 36 samples.

Results

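The ribosomal RNA (rRNA) operon of the Arabidopsis plastid genome lies in the inverted repeat and is therefore present in a pair of mirrored copies. It was followed here as the 50-bp bins, counted from position 1 of the deposited coverage table, that lie in positions 100651-108600 or in the mirrored positions 130051-137950. These were 317 of the 3090 bins of the plastid genome, 159 in the first copy and 158 in the second. Each copy held, in the order of transcription, trnV, rrn16S, trnI, trnA, rrn23S, rrn4.5S, the 5S rRNA gene and trnR. The region had been selected on the same data, because ChIP coverage in Col-0 stood above input over its whole length in an earlier analysis. The level of Col-0 ChIP above input is therefore given as a description with no test.

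The plastid-encoded RNA polymerase (PEP) is a bacterial-type, multi-subunit polymerase that transcribes most plastid genes in green tissue. RpoB is its β subunit and part of the catalytic core. pTAC3 and pTAC14, encoded in the nucleus, associate with PEP in the transcriptionally active chromosome of the plastid, and mutants that lack such proteins are pale and low in PEP-dependent transcripts. The rRNA operon supplies the RNAs of the plastid ribosome from 1 long precursor, in which intron-containing tRNA genes separate the 16S and 23S rRNAs, and its main PEP promoter lies between trnV and rrn16S.

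The study measured where RpoB and pTAC3 were bound by chromatin immunoprecipitation and sequencing (ChIP-seq) in 5-day-old seedlings, grown under continuous light and crosslinked with formaldehyde. One set compared RpoB ChIP in the ptac3 mutant with the same ChIP in the wild type, Col-0 (the ptac3 set). Another compared RpoB ChIP in the ptac14 mutant with RpoB ChIP in Col-0 (the ptac14 set), and the last compared ChIP with an antibody to pTAC3 in ptac3 with the same ChIP in Col-0 (the pTAC3 set). Each of the 6 ChIP groups had 3 libraries and its own group of 3 input libraries, so that 36 libraries formed 12 groups. The titles of the RpoB sets named the mutants by line alone, without an allele. Those of the pTAC3 set read only mutant, and the line was taken as ptac3. A genotype tag that read wild type for every sample was not used. Neither mutation lies in the plastid genome, so plastid coverage gave no check of the line labels. Nothing in the labels tied the replicates of a group to separate batches of plants, so the p-values measure the spread between these libraries.

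Mean coverage per position ran from 59.2 to 204 in mutant ChIP libraries, against 113 to 1538 in Col-0 ChIP libraries, and from 318 to 924 in the inputs. For enrichment, each ChIP library was divided by the input with its own group and number on a log2 scale, both scaled to its own mean over the plastid genome. On this scale the median bin of the genome was itself higher in the mutants, by 0.84 for RpoB in ptac3, 1.31 for RpoB in ptac14 and 0.89 for pTAC3, so a value below 0 in a mutant-minus-Col-0 difference stood against that shift. The copies have the same genes, and reads from one cannot be told apart from reads of the other. Of the coverage of the pair, 49.5% to 50.8% fell in the first copy over the 36 libraries. The copies therefore hold 1 measurement. Stretches and profile windows were averaged over both copies, while the fits by bin and by gene entry kept each copy as rows of its own.

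In Col-0 the operon was covered from end to end by both proteins, with the highest level at the promoter end. The highest 50-bp window of the operon lay in the spacer between trnV and rrn16S in 9 of 9 Col-0 libraries, either 150 to 101 bp or 100 to 51 bp before the 5′ end of rrn16S. The window at 100 to 51 bp averaged 2.69, 3.11 and 3.09 (log2) in Col-0 of the ptac3, ptac14 and pTAC3 sets. RpoB ChIP there held 8.11, 5.52 and 6.32 times the library mean for Col-0 of the ptac3 set, and 7.65, 8.73 and 10.7 times in Col-0 of the ptac14 set. pTAC3 ChIP held 6.66, 7.55 and 7.36 times the library mean in the same window, while the 9 inputs of Col-0 held between 0.74 and 1.10 times. The promoter window was therefore high in every Col-0 ChIP library and near the library mean in every Col-0 input.

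**Figure D1:**
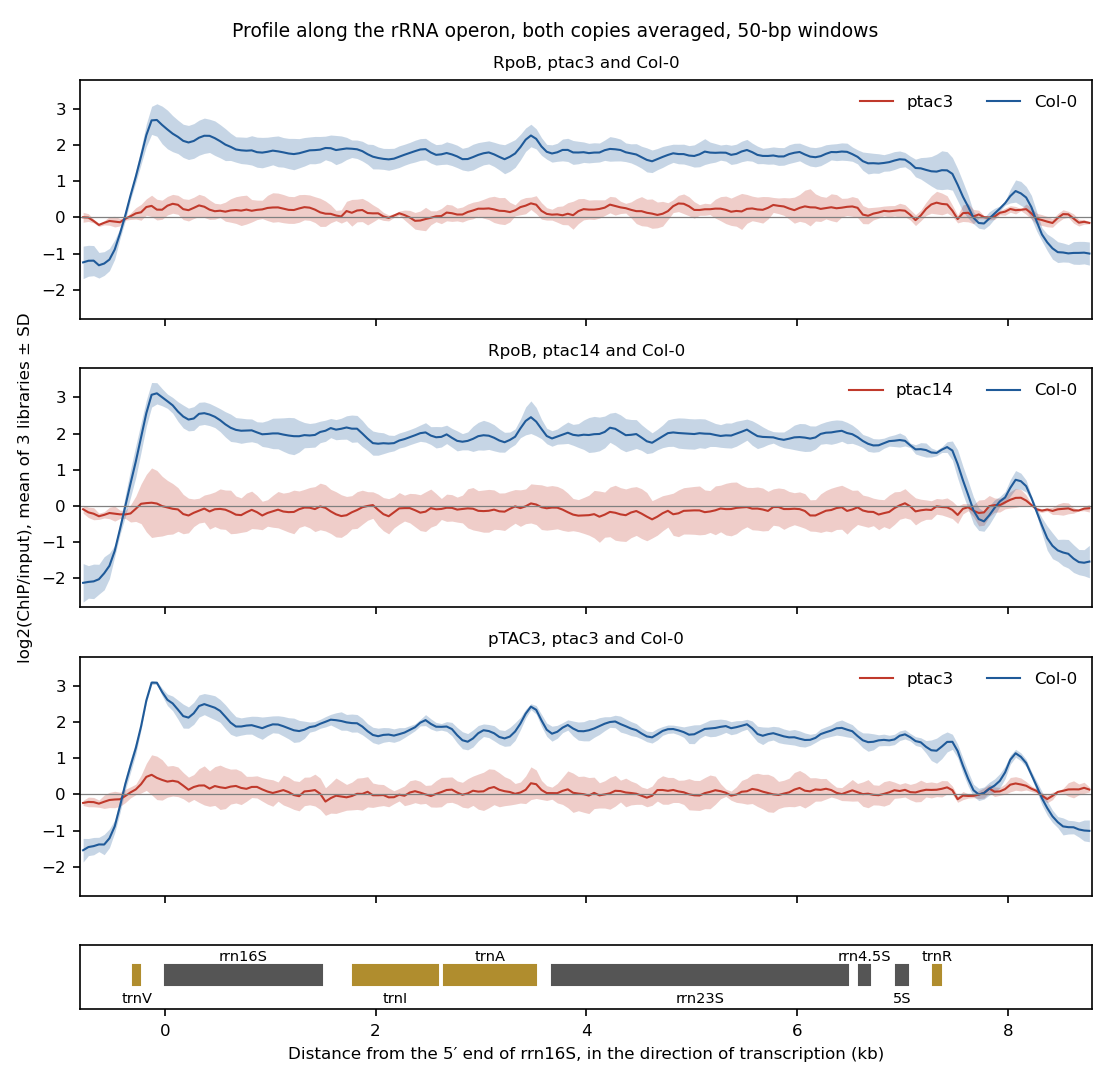
Log2(ChIP/input) in 50-bp windows (vertical axis; line, mean of 3 libraries; band, SD) against the distance from the 5′ end of rrn16S in kb (horizontal axis), with the mutant in red, Col-0 in blue, and the genes drawn to scale at the foot. Col-0 peaks just before rrn16S (2.69, 3.11 and 3.09 in the window 100 to 51 bp before the gene), stays high to trnR and drops at both ends, while the mutant lines lie near 0.

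In Col-0 the group means fell across both edges of the region, at the far end to levels still above input. No such edge was visible in the mutants. In the mutants the bins just inside and just outside both ends of the first copy averaged between −0.30 and 0.16 (log2, group means). In Col-0 the first bin inside the region averaged 0.44 ± 0.17, 0.49 ± 0.34 and 0.73 ± 0.21 (log2, SD, n = 3 each) for the ptac3, ptac14 and pTAC3 sets, and the bin just before it averaged −0.10 ± 0.19, −0.15 ± 0.29 and 0.24 ± 0.25. At the far end the last bin inside averaged 0.63 ± 0.42, 0.83 ± 0.50 and 0.84 ± 0.25, and the bin after it averaged 0.34 ± 0.36, 0.42 ± 0.45 and 0.49 ± 0.25.

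Behind the promoter the Col-0 level fell to a plateau that sloped gently down along the operon. Over the 9 Col-0 libraries the 231-bp spacer between trnV and rrn16S averaged 2.71 ± 0.30 (log2, SD), and rrn16S, the gene of the small-subunit rRNA, followed at 2.11 ± 0.32. The spacer exceeded rrn16S by 0.61 ± 0.17 within a library, in 9 of 9 libraries. The next places were held by the spacer between rrn16S and trnI at 2.02 ± 0.26 and the spacer between trnA and rrn23S at 1.96 ± 0.20. The gaps between rrn16S and the first of these (0.09 ± 0.09) and between these 2 spacers (0.05 ± 0.08) were about as large as their spread.

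The middle of the operon was level. trnA averaged 1.86 ± 0.26, the trnI-trnA spacer 1.84 ± 0.22, rrn23S 1.83 ± 0.26, trnI 1.81 ± 0.22 and the rrn23S-rrn4.5S spacer 1.80 ± 0.22 over the 9 Col-0 libraries. Neighbours among these 5 differed by at most 0.02, less than the spread of that difference over libraries. The distal genes of the small rRNAs of the large ribosomal subunit were lower, with the 5S gene at 1.68 ± 0.18 and rrn4.5S at 1.60 ± 0.24. The outer tRNA genes were lowest of the genes, with trnR, an arginine tRNA gene, at 1.32 ± 0.32 and trnV, a valine tRNA gene, at 1.31 ± 0.26.

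Smaller maxima stood on this plateau. The most pronounced was a window in the 3′ part of trnA, 3450 to 3499 bp from the start of rrn16S, where the mean of the 9 Col-0 libraries was 2.38 ± 0.29. It exceeded the windows 300 bp to either side by 0.59 ± 0.14, in 9 of 9 libraries. Others lay within rrn16S (350 to 399 bp, 2.44 ± 0.35), near the 3′ end of trnI (2450 to 2499 bp, 1.99 ± 0.23) and within rrn23S (4200 to 4249 bp, 2.02 ± 0.30). Further maxima lay in the rrn16S-trnI spacer (1550 to 1599 bp, 2.04 ± 0.26) and in rrn23S (5500 to 5549 bp, 1.97 ± 0.24, and 6400 to 6449 bp, 1.91 ± 0.25). Beyond the far end of the operon a separate rise was centred at 8050 to 8099 bp, where the Col-0 mean was 0.86 ± 0.29.

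In the mutants the signal over the operon was close to input. Per library, mean enrichment over the operon was −0.09, 0.26 and 0.41 in RpoB ChIP of ptac3, against 2.10, 1.49 and 1.74 in Col-0. RpoB ChIP of ptac14 gave −0.41, −0.43 and 0.46, against 1.74, 1.90 and 2.29 in Col-0. pTAC3 ChIP of ptac3, taken here as the mutant of the antigen itself, gave −0.27, 0.41 and 0.11, against 1.68, 1.73 and 2.03 in Col-0. In each set every mutant library lay below every Col-0 library.

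**Figure D2:**
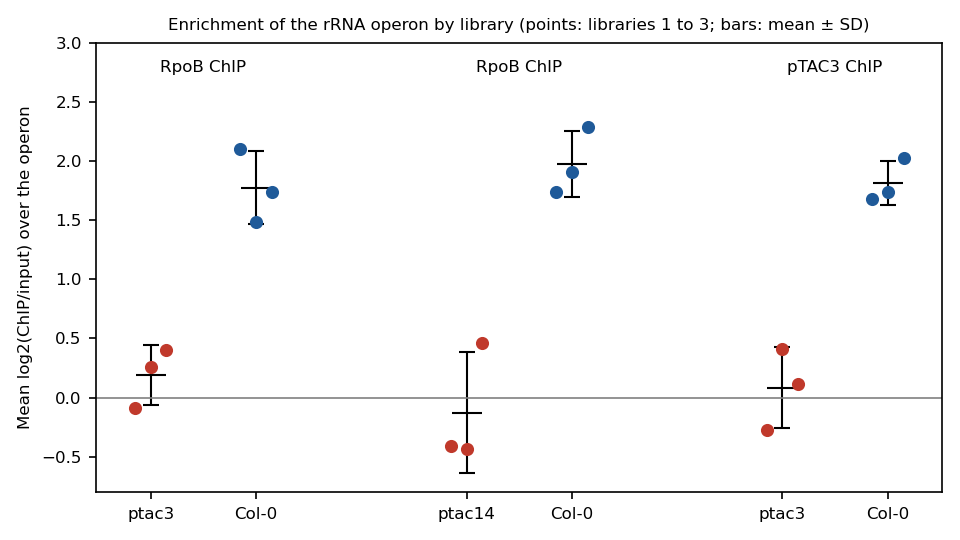
Mean log2(ChIP/input) over the 317 operon bins (vertical axis) for each ChIP library (points), with the mean and SD of each group (black bars), mutants in red and Col-0 in blue. The 9 mutant libraries lie between −0.43 and 0.46, and the 9 Col-0 libraries between 1.49 and 2.29.

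As a ratio, ChIP stood at 1.15 ± 0.20 times input in ptac3 and 3.47 ± 0.75 times in Col-0 for RpoB in the ptac3 set (SD, n = 3 each). It stood at 0.96 ± 0.37 times input in ptac14 and 3.99 ± 0.80 times in Col-0, and for pTAC3 at 1.08 ± 0.25 times in ptac3 and 3.54 ± 0.47 times in Col-0. The mutant minus Col-0 differences were −1.58 ± 0.23, −2.10 ± 0.34 and −1.73 ± 0.22 (log2, SE) for the ptac3, ptac14 and pTAC3 sets. A two-sided exact permutation test gave p = 0.1 in each set, the smallest that 3 libraries against 3 allow, and 0.1 after adjustment over the 3 sets. The Col-0 libraries of this comparison are those on which the region was selected. All 3 other ways of scaling the libraries enlarged the differences, by over 1.5 times where the scale was the rpoB, rpoC1 and rpoC2 genes, which gave −2.93, −4.22 and −3.40, or the median bin, which gave −2.53, −3.51 and −2.71.

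By limma, with Benjamini-Hochberg adjustment over all bins tested, 316 of 317 operon bins were lower in ptac3 than in Col-0 for RpoB at an adjusted p under 0.05, against 19.1% of all bins. For RpoB in ptac14 and for pTAC3 317 of 317 were lower, against 17.5% and 21.2% of all bins. No operon bin was higher in a mutant in this test. The 1 bin that missed the threshold was the first of the first copy, before trnV, where ptac3 minus Col-0 was −0.43 ± 0.22 (SE, limma adjusted p = 0.058). Neighbouring bins and the copies share reads, so these counts are extents, and the Col-0 side of the contrast selected the region. In all 3 sets, each of the 317 bins had its 3 mutant libraries below its 3 Col-0 libraries, as had 20.9%, 19.3% and 22.1% of all bins.

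The lower signal took in every class of gene in the operon. Of 15 gene entries in both copies, 15 were lower in each set by limma over 128 plastid gene entries, where 30.5%, 27.3% and 36.7% of all entries were lower. The 7 rRNA gene entries had median changes of −1.51, −2.11 and −1.69 (log2) for the ptac3, ptac14 and pTAC3 sets. The 4 entries of trnI and trnA, the isoleucine and alanine tRNA genes with introns, had medians of −1.62, −1.999 and −1.74. The 4 entries of the outer genes trnV and trnR had medians of −0.98, −1.46 and −1.21. The median over all 128 entries was 0.60, 0.86 and 0.54. The Col-0 side of this contrast selected the region, so lower mutant values at its genes were favoured in advance and these calls are extents.

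**Figure D3:**
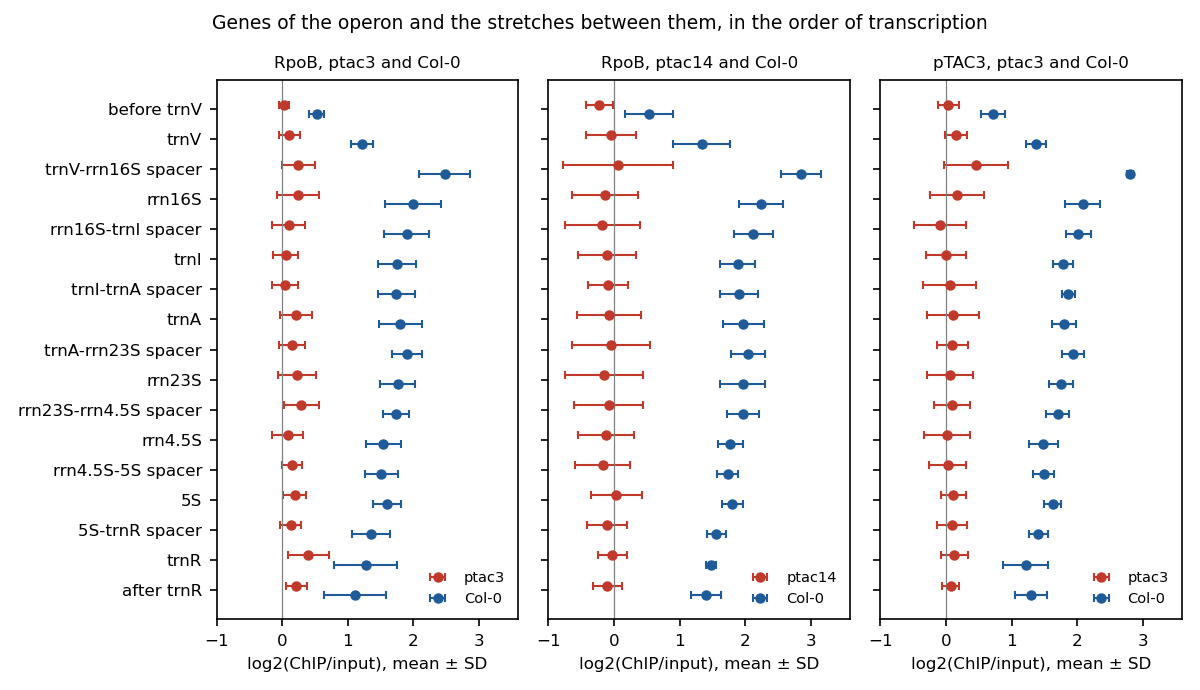
Log2(ChIP/input) (horizontal axis; points, mean of 3 libraries; bars, SD) for each gene of the operon and each stretch between genes (vertical axis, in the order of transcription, both copies averaged), mutants in red and Col-0 in blue. The spacer between trnV and rrn16S is highest in all 3 Col-0 groups (2.48, 2.85 and 2.80), and the highest mutant average is 0.45.

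rrn16S had the largest change of the rRNA genes. In the first copy it stood at −0.14, 0.30 and 0.53 in the RpoB libraries of ptac3, against 2.48, 1.64 and 1.87 in Col-0, and the difference was −1.77 ± 0.18 (SE, limma adjusted p = 1.74e-19). In ptac14 it stood at −0.46, −0.43 and 0.44, against 1.96, 2.17 and 2.62 in Col-0, a difference of −2.40 ± 0.26 (limma adjusted p = 1.66e-06). In pTAC3 ChIP it stood at −0.25, 0.57 and 0.22 in ptac3, against 1.84, 2.05 and 2.35 in Col-0, a difference of −1.90 ± 0.17 (limma adjusted p = 1.64e-25). The groups did not overlap in any set. In the pTAC3 set all genes were given 1 shared spread by the fit, and in the ptac3 set nearly so (SE 0.178 to 0.179), which makes these p-values smaller than the 3 libraries of a group would give on their own. The Col-0 libraries also selected the region, so the p-values of its genes, here and below, are not independent support for a change.

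rrn23S, the gene of the large-subunit rRNA, averaged 0.23 ± 0.29 in ptac3 and 1.75 ± 0.25 in Col-0 for RpoB (first copy, log2, SD, n = 3 each). In ptac14 it averaged −0.14 ± 0.60, against 1.97 ± 0.34 in Col-0, and in pTAC3 ChIP 0.04 ± 0.35 in ptac3, against 1.75 ± 0.17 in Col-0. The 5S gene, annotated in the second copy, averaged 0.14 ± 0.21 in ptac3 and 1.60 ± 0.18 in Col-0 for RpoB. It averaged 0.04 ± 0.42 in ptac14 and 1.79 ± 0.15 in Col-0, and for pTAC3 0.15 ± 0.27 in ptac3 and 1.67 ± 0.16 in Col-0. Neither gene's groups overlapped in any set.

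Of the 15 gene entries, trnR at the far end differed least in the ptac3 and pTAC3 sets, and trnV in the ptac14 set (−1.36, second copy). For RpoB trnR was 0.10, 0.65 and 0.62 in ptac3, against 1.83, 1.14 and 0.96 in Col-0 (first copy), a difference of −0.85 ± 0.18 (SE, limma adjusted p = 4.12e-06). In ptac14 trnR was −0.01, −0.31 and 0.24, against 1.61, 1.46 and 1.37 in Col-0. With both copies averaged, trnR was the highest of the 17 genes and stretches in 5 of 9 mutant libraries, and in 0 of 9 Col-0 libraries. The spacer before rrn16S was the highest in 3 of 9 mutant libraries and in 9 of 9 Col-0 libraries.

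The slope along the operon was closer to 0 in the mutants. From the 5′ end of rrn16S to the far end, log2(ChIP/input) changed by 0.01, 0.01 and −0.01 per kb in the RpoB libraries of ptac3, against −0.10, −0.05 and −0.06 per kb in Col-0. The ptac14 libraries gave 0.02, −0.01 and −0.01 per kb, against −0.04, −0.06 and −0.10 in Col-0. pTAC3 ChIP gave 0.02, −0.03 and −0.02 per kb in ptac3, against −0.08, −0.08 and −0.09 in Col-0. The slope was below 0 in 5 of 9 mutant libraries and in 9 of 9 Col-0 libraries. The fitted stretch takes in the shoulder of the promoter peak and the fall after trnR, so its slope is not that of the middle alone. In Col-0 of the ptac3 set, RpoB averaged 2.43 at 0 to 49 bp and 0.90 at 7500 to 7549 bp. The mutant minus Col-0 difference in slope was 0.07 per kb in each set (SE 0.015, 0.020 and 0.015), without overlap, at the smallest p that a two-sided exact permutation test allows (p = 0.1). The Col-0 libraries selected the region and mutant levels lay near input, so a flatter mutant profile was favoured in advance. The test is not independent support for a change in slope.

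The peak before rrn16S, measured within a library as the spacer minus the operon mean, was lower in the mutants. It was 0.05 ± 0.09 in ptac3 and 0.70 ± 0.08 in Col-0 for RpoB (log2, SD, n = 3 each). It was 0.19 ± 0.34 in ptac14 and 0.88 ± 0.08 in Col-0, and for pTAC3 0.37 ± 0.15 in ptac3 and 0.99 ± 0.16 in Col-0. Groups did not overlap in any set (exact permutation p = 0.1, two-sided). The spacer stood above the operon mean in 7 of 9 mutant libraries and in 9 of 9 Col-0 libraries. This measure is a difference within each library and so does not move with the scale of the library. The Col-0 libraries selected the region and the spacer is their highest stretch, so a larger Col-0 value was favoured in advance. The test is therefore not independent support for a lower peak.

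The contrast between the operon and the sequence before it was lower too. Relative to a 1000-bp stretch that ends 500 bp before the trnV end of the region, the operon stood 0.24 ± 0.27 higher in ptac3 and 3.06 ± 0.73 higher in Col-0 for RpoB (log2, SD, n = 3 each). It stood 0.04 ± 0.64 higher in ptac14 and 4.04 ± 0.75 higher in Col-0, and for pTAC3 0.13 ± 0.45 higher in ptac3 and 3.30 ± 0.41 higher in Col-0.

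Mutant libraries were then set against their own inputs, a contrast in which no Col-0 library takes part. For RpoB in ptac3, 6 of 317 operon bins stood above input by limma (adjusted p under 0.05), against 0.357% of all bins, and 0 stood below, against 2.66% of all bins. At an unadjusted p under 0.05 there were 99 operon bins, all above input, and 23% of all bins in either direction. The 6 bins lay at the promoter (1 bin), in trnA (1 bin), in rrn23S (1 bin) and around trnR (3 bins), with ChIP minus input between 0.39 and 0.46. This call did not hold over settings: 0 bins passed with replicates as a block, with all groups in 1 fit or with the spread of each bin alone, 54 passed without ptac3 library 1 (1.94% of all bins did), and 0 passed without library 2 or without library 3.

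For RpoB in ptac14, 0 of 317 operon bins passed in either direction by limma, against 0% of all bins in each, and 2 operon bins, both below input, reached an unadjusted p under 0.05, against 11.5% of all bins. Without ptac14 library 3, 75 operon bins were below input at an adjusted p under 0.05, against 2.53% of all bins. For pTAC3 in ptac3, 0 of 317 passed in either direction by limma, again against 0% of all bins, and 11, all above input, reached an unadjusted p under 0.05, against 11% of all bins. Without library 1 of the pTAC3 ChIP in ptac3, 122 operon bins, all above input, reached an unadjusted p under 0.05, against 16% of all bins in either direction.

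The mutant libraries differed among themselves more than their means show. Library 3 of ptac14 had the highest operon mean of its group (0.46, against −0.41 and −0.43 in the other two) and peaked 150 to 101 bp before rrn16S, at 1.20, the window range where Col-0 peaks. The window 100 to 51 bp before rrn16S held 0.75, 0.83 and 2.41 times the library mean in libraries 1, 2 and 3 of ptac14. The spacer of library 3 stood at 1.02, and those of libraries 1 and 2 at −0.50 and −0.34. Across the 50-bp windows of the operon, its profile correlated with the mean Col-0 profile of the other 2 sets at r = 0.62, and those of libraries 1 and 2 at −0.36 and 0.08. These r values are over windows of 1 library, which share reads with their neighbours, and carry no test.

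**Figure D4:**
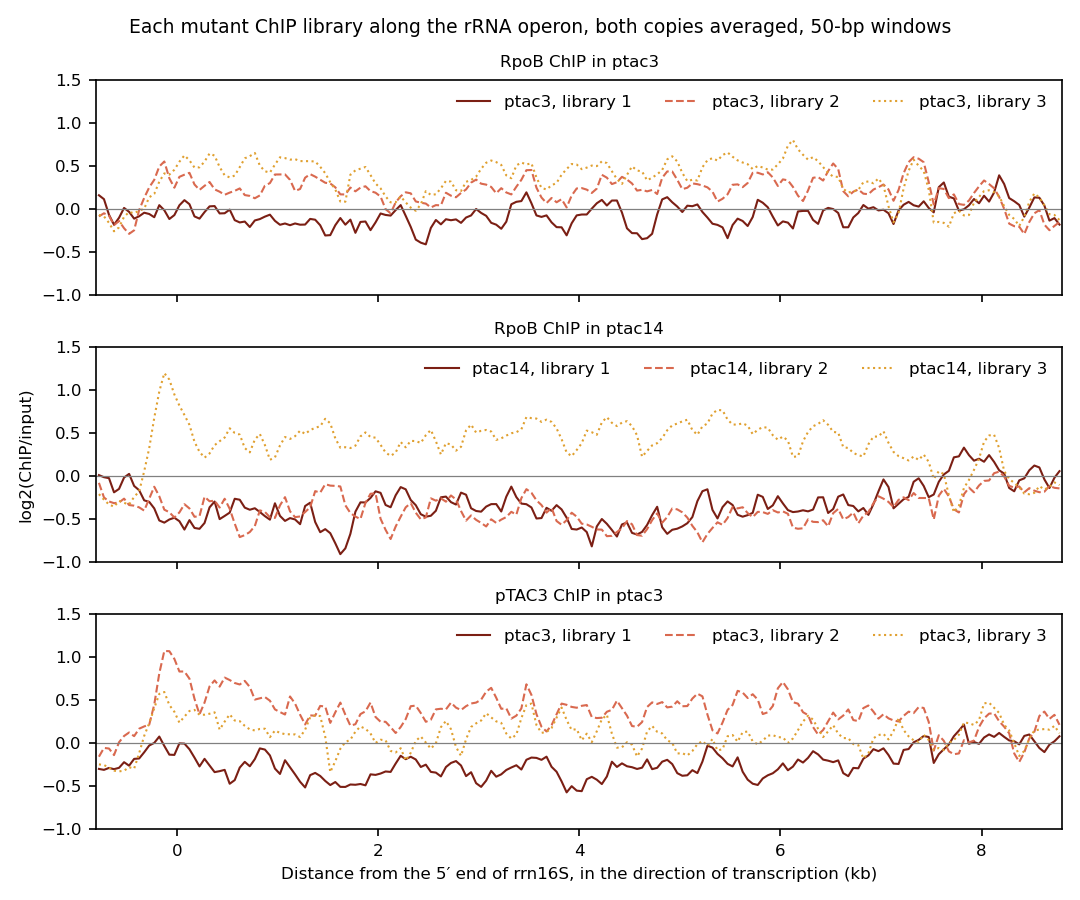
Log2(ChIP/input) in 50-bp windows (vertical axis) of each of the 9 mutant ChIP libraries, 1 line per library, against the distance from the 5′ end of rrn16S in kb (horizontal axis). Library 3 of ptac14 and library 2 of the pTAC3 ChIP in ptac3 rise before rrn16S, to 1.20 and 1.07, while libraries 1 and 2 of ptac14 stay below 0 over the whole operon.

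pTAC3 ChIP in ptac3 varied in the same way. Libraries 1, 2 and 3 had operon means of −0.27, 0.41 and 0.11, spacer levels of −0.05, 0.93 and 0.48, and r values with Col-0 of −0.04, 0.66 and 0.50. Library 2 was the shallowest of the 3, at a mean coverage of 59.2 per position, and libraries 1 and 3 had 144 and 173. RpoB ChIP in ptac3 gave r values of 0.09, 0.16 and 0.33 in libraries 1, 2 and 3, whose mean coverage was 105, 148 and 204. For comparison, the 9 Col-0 libraries had r values of 0.88 to 0.95. The part of depth or of the separate immunoprecipitations in this variation was not tested.

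The window in the 3′ part of trnA stood above its neighbours in the mutants as well. It exceeded the windows 300 bp to either side by 0.27 ± 0.16 in RpoB ChIP of ptac3, against 0.50 ± 0.04 in Col-0 (log2, SD, n = 3 each). The rise was 0.19 ± 0.19 in ptac14, against 0.56 ± 0.18 in Col-0, and for pTAC3 0.20 ± 0.05 in ptac3, against 0.71 ± 0.09 in Col-0. It was above 0 in 9 of 9 mutant libraries, among which the lowest value was 0.0046, in ptac14. This was not particular to trnA. The window at 8050 to 8099 bp, beyond the operon, also exceeded its neighbours in 9 of 9 mutant libraries, by 0.32 ± 0.22, against 0.22 ± 0.13 for trnA (log2, SD over the 9). The promoter window exceeded its neighbours in 6 of 9 mutant libraries, by 0.29 ± 0.40 (log2, SD over the 9). The rrn23S windows from 4200, 5500 and 6400 bp did so in 6 of 9 each, by 0.10 ± 0.15, 0.01 ± 0.13 and 0.08 ± 0.17. The window in the rrn16S-trnI spacer did so in 3 of 9, with a mean of −0.10 ± 0.23. The window in rrn16S exceeded its neighbours in 5 of 9, by 0.01 ± 0.15, and that near the 3′ end of trnI in 3 of 9, with a mean of −0.04 ± 0.16.

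The share of all plastid coverage that fell in the operon gives the same comparison without input, pseudocount or log scale. The operon makes up 10.3% of the bins. It held 11.4%, 12.7% and 14.7% of RpoB ChIP coverage in ptac3, against 43.0%, 30.98% and 36.7% in Col-0. It held 8.45%, 8.54% and 15.6% in ptac14, against 38.8%, 41.8% and 54.7% in Col-0. In pTAC3 ChIP it held 8.55%, 13.01% and 11.3% in ptac3, against 29.8%, 34.2% and 39.6% in Col-0. The mutant shares thus lay near the operon's part of the genome, and at least 29.8% of the coverage of each Col-0 ChIP library came from it. In Col-0 the share followed depth in some groups and not in others. The deepest library had the highest share for RpoB in the ptac3 set (43.0% at a mean coverage of 1538) and in the ptac14 set (54.7% at 1177). The shallowest library had the highest share for pTAC3 (39.6% at 244, against 34.2% at 573), and for RpoB in the ptac3 set the shallowest library had 36.7% at 238, above 30.98% at 586. The part of depth was not tested.

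**Figure D5:**
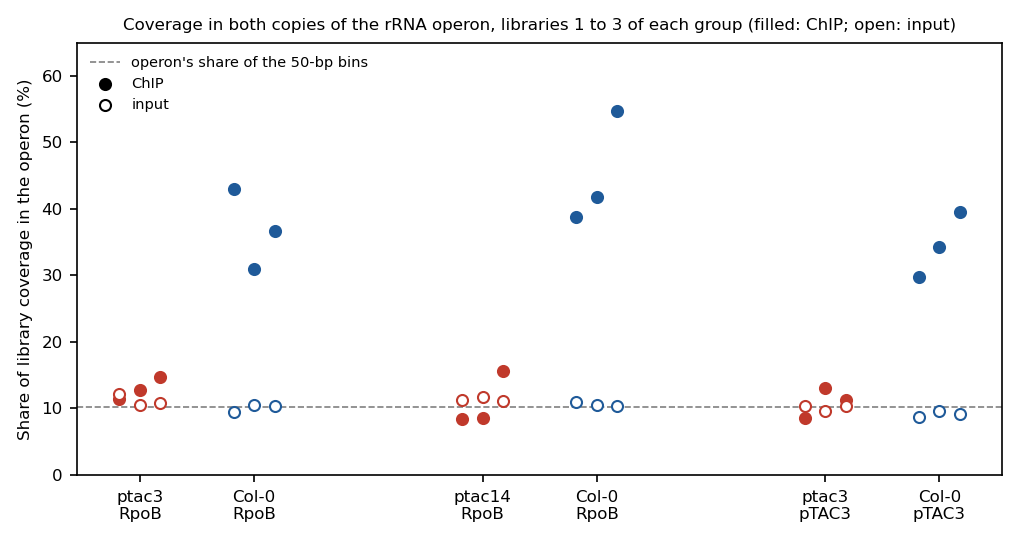
Percent of each library's plastid coverage that lies in both copies of the operon (vertical axis) for ChIP (filled) and input (open) libraries of each group, mutants in red and Col-0 in blue. The dashed line is the operon's part of the bins (10.3%); Col-0 ChIP lies between 29.8% and 54.7%, and all inputs and mutant ChIP libraries lie between 8.45% and 15.6%.

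The inputs showed a small difference of their own, in the other direction. The operon held 12.1%, 10.5% and 10.9% of input coverage in ptac3, against 9.47%, 10.6% and 10.4% in Col-0 of the ptac3 set. It held 11.3%, 11.7% and 11.1% in ptac14, against 11.04%, 10.6% and 10.4% in Col-0, and 10.4%, 9.57% and 10.4% in ptac3, against 8.78%, 9.69% and 9.13% in Col-0 of the pTAC3 set. Mutants and Col-0 overlapped in the ptac3 and pTAC3 sets and did not in the ptac14 set (exact permutation p = 0.2, 0.1 and 0.2 for the ptac3, ptac14 and pTAC3 sets, two-sided, and 0.2 in each after adjustment over the sets).

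Bin by bin, mean input over the operon was 0.13, 0.09 and 0.13 higher in the mutant (log2) for the ptac3, ptac14 and pTAC3 sets. By limma 0 of 317 operon bins passed an adjusted p of 0.05 in any set, and 0% of all bins did. At an unadjusted p under 0.05 there were 112, 77 and 149 operon bins, of which 112, 76 and 149 were higher in the mutant, against 12.8%, 15% and 13.6% of all bins in either direction. With all groups in 1 fit, 0.315% of operon bins passed in the ptac3 set, against 0.454% of all bins. These input differences enter the enrichment of the mutant libraries, which is divided by input.

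Other regions bound in Col-0 served for comparison, namely trnD to trnE, trnL to trnF, and psbA, which encodes the D1 protein of photosystem II. Their mean enrichment was 0.02 ± 0.10 in ptac3 and 1.22 ± 0.23 in Col-0 for RpoB (log2, SD, n = 3 each). It was 0.12 ± 0.16 in ptac14 and 1.49 ± 0.14 in Col-0, and for pTAC3 0.04 ± 0.17 in ptac3 and 1.42 ± 0.15 in Col-0. The operon's excess over them was 0.17 ± 0.17 in ptac3 and 0.56 ± 0.15 in Col-0 for RpoB, −0.24 ± 0.35 in ptac14 and 0.49 ± 0.37 in Col-0, and for pTAC3 0.04 ± 0.18 in ptac3 and 0.40 ± 0.18 in Col-0. The mutant change was thus larger at the operon than at the mean of these regions by −0.39 ± 0.13, −0.73 ± 0.30 and −0.35 ± 0.15 (log2, SE). Groups did not overlap in any set, at the smallest p of the two-sided exact permutation test (p = 0.1). The regions were not alike. The changes for the ptac3, ptac14 and pTAC3 sets were −1.45, −1.59 and −1.50 from trnL to trnF. They were −1.17, −1.29 and −1.33 from trnD to trnE, −0.97, −1.23 and −1.30 at psbA, and −1.58, −2.10 and −1.73 at the operon. All these regions were chosen with their Col-0 levels known.

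The change at the operon was compared between the RpoB sets. It was −1.58 in ptac3 and −2.10 in ptac14, and ptac3 minus ptac14 was 0.52 ± 0.41 (log2, SE, over 12 libraries). By limma 0 of 317 operon bins differed in their change at an adjusted p under 0.05, and 0% of all bins did, while 17 operon bins and 16.5% of all bins reached an unadjusted p under 0.05. The mutant levels alone differed by 0.32 ± 0.33 (exact permutation p = 0.4, two-sided, 3 libraries each). With this spread, a difference between the mutants of the size of these errors was not detectable.

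In Col-0, pTAC3 and RpoB were set side by side over the operon, with pTAC3 at 1.81 and RpoB at 1.87 over both of its sets. The difference was −0.06 ± 0.16 (log2, SE, 3 libraries against 6). All 9 of these libraries took part in selecting the region, so the closeness of the levels is a description. By limma 0 of 317 operon bins differed at an adjusted p under 0.05, and 0% of all bins did, while 0 operon bins and 1.52% of all bins reached an unadjusted p under 0.05, which does not show that the levels are equal. The peak before rrn16S, as spacer minus operon mean, was 0.99 ± 0.16 for pTAC3 and 0.70 ± 0.08 and 0.88 ± 0.08 for RpoB in the ptac3 and ptac14 sets. The antibodies were used in separate sets, so antibody and set cannot be told apart here.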

How the data were processed

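ChIP-seq was made from 5-day-old seedlings (50 per sample on 0.5X MS medium, 48 h of stratification, 100 µmol light, 4% formaldehyde for 4 h), per the labels' protocols. The authors deposited whole-number read coverage for each of 154477 plastid positions, 1 column per library, not scaled to depth; the unit was entered as other. The submitters' processing notes name Trim Galore 0.4.1, Bowtie2, bedtools 2.25.0 and the TAIR10 build; how reads of the inverted repeat were placed is not given in the sources used here.

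Gene names and extents came from RefSeq's TAIR10.1 table, and only distances are printed. Mirrored about its gene pairs, the base-to-base steps of both copies fitted each other best without any shift in 36 of 36 libraries (shifts up to 50 bp tried). No 2 libraries held identical values.

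Coverage was averaged in 50-bp bins and divided by the library mean, a pseudocount of 5% of that mean was added, and log2(ChIP/input) was taken. Fold changes on this scale understate changes at low coverage. A filter on input below 10% of its median removed 5 bins of each RpoB set and 4 of the pTAC3 set, none in the operon. Values of genes, stretches and profile windows came from mean coverage, averaged over both copies except for gene tests. limma 3.58.1 (R 4.3.3) was fitted on all bins or on 128 gene entries, a fit per set, with Benjamini-Hochberg adjustment, and was tested on simulated data. Per-library values were compared by exact permutation (SciPy 1.17.1). All genes of the region and the stretches between them are named, and trnD to trnE, trnL to trnF and psbA for comparison. The members and lists were chosen with earlier results of these data known. Alternatives changed scaling, pseudocount, input, filter, bin size, copy, fit and libraries.

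Same-numbered mutant and Col-0 ChIP libraries deviated together in the ptac14 set (r = 0.46, 0.28 and 0.71 for numbers 1, 2 and 3), where every pair passed 0.1, and not in the ptac3 and pTAC3 sets. Number 2 was not singled out, since ptac14 library 2 correlated more closely with Col-0 library 1 (r = 0.49). Mutant libraries 1 and 3 correlated best with the Col-0 library of their own number. Col-0 library 1 correlated best with mutant library 2, so only number 3 matched from both sides. Any such pairing is read from the data, since the labels name no shared batch.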

Additional observations from a re-analysis of the deposited data

How the results depend on the processing

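Direction and size held for most values. The size of the operon difference depended on the scale of the libraries, while its direction did not. Scaling the libraries to bins outside the operon gave operon differences of −2.07, −2.82 and −2.19 (log2, mutant minus Col-0) in the ptac3, ptac14 and pTAC3 sets, scaling to the median bin gave −2.53, −3.51 and −2.71, and the genes rpoB, rpoC1 and rpoC2 as scale gave −2.93, −4.22 and −3.40. The share of operon bins of ptac3 RpoB ChIP above input was 1.89% and gave 3.14% in the first copy and 0.633% in the second, 0.946% with the median bin as scale, and 0% with bins outside the operon or the rpo genes as scale, with 300-bp bins, with all groups in 1 fit, with the spread of each bin alone and with the replicate block. Leaving out 1 library at a time, it ran between 0% and 17.03%. With all groups in 1 fit, 0.315% of operon bins differed in input in the ptac3 set. The causes were not tested.

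With the replicate block, 0% of operon bins of ptac3 RpoB ChIP stood above input. The block changed no other call. In the ptac14 set, where same-numbered libraries deviated together, 100% of operon bins were lower. Same-numbered mutant and Col-0 libraries correlated at −0.39, −0.20 and 0.02 in the ptac3 set and at 0.39, −0.25 and −0.05 in the pTAC3 set.

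Coverage is not a count of independent reads, 3 libraries a group cannot pass 0.05 in a permutation test, and levels below about 5% of the library mean are set by the pseudocount.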
